A study of Mus musculus with 17 samples.

Results

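The 47 genes described here encode nucleolar assembly factors of the large (60S) ribosomal subunit. They were taken by name from a list, and all 47 were found among the 55416 gene IDs that each count file holds. The list is of factors other than GTPases and export factors, but Gtpbp4, a nucleolar GTP-binding protein, is on it. All 47 also passed the filter on low counts in each fit. Their polyA RNA was measured in mouse embryonic stem cells (mESCs) of the line E14Tg2a.4 in which ribosomal protein Rpl31 carries a tag that can be biotinylated (Rpl31-FTA, for FLAG, TEV site and AviTag). All groups carry this tag and share a culture medium with serum and leukemia inhibitory factor. In all of them ribosomes near the endoplasmic reticulum (ER) were biotinylated by ALIBi, a system that labels by proximity. The groups differ in the siRNA the cells had been given: scramble (the control), Nmd3 or Gnl3. Each was measured in RNA of the purified ER ribosomes and in whole-cell RNA of the lysate they came from. There are 3 biological replicates a group, except the scramble ER group with 2 (replicates 2 and 3), and 17 libraries in all. The labels name a single tagged line, so the replicates are cultures of 1 line.

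Large subunits are built in the nucleolus around the newly made precursor rRNA. Early factors fold and hold the precursor, and DEAD-box helicases and AAA ATPases remodel it. The Pes1-Bop1-Wdr12 complex is needed to process the spacer next to 5.8S rRNA, and Rpf2 and Rrs1 bring in the 5S particle. The rixosome removes the second internal spacer, and the giant ATPase Mdn1 strips factors from the particle as it leaves for the nucleoplasm. Nmd3 then bridges the particle to the exportin Xpo1, and Gnl3 (nucleostemin) is a nucleolar GTPase that is abundant in stem cells. Most proteins of the 47 genes work in the nucleus, and the ribosomes that make them need not be at the ER. Embryonic stem cells make ribosomes at a high rate, and MYC family factors, which bind the E-box CACGTG, are known activators of such genes.

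The stretch of 120 bases just before the transcription start is shown for 3 of them, Nop16, Nop2 and Rpf2. Nop16 was the 1 member that passed the test after both knockdowns. Nop2 and Rpf2 hold a whole E-box within this stretch. The sequences are from RefSeq (GRCm38.p6), 5′ to 3′ on the gene's strand, with the E-box in capitals. They lie at chr13:54590075-54590194 (minus strand), chr6:125131763-125131882 (plus strand) and chr10:40246980-40247099 (minus strand; 1 of 2 starts in the RefSeq table).
Nop16: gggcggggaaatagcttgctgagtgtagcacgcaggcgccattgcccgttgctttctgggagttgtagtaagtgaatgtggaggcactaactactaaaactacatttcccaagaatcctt
Nop2: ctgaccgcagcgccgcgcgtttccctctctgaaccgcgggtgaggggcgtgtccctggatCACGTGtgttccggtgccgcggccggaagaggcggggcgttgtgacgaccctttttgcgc
Rpf2: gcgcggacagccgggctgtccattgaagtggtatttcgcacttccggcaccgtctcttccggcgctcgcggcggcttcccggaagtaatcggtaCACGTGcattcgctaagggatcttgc
The motif was searched as CACGTG, which reads the same on both strands, in the window from 250 bases before to 50 bases after each start in the table. Of the 47 members 41 had an entry. The motif was in 8 of the 41 (19.5%), against 2187 of 27025 genes (8.09%). The 8 were Mdn1, Tex10, Nop2, Tma16, Rpf2, Pes1, Pelp1 and Nle1. The Nop16 window held no copy. The match is a description of letters only.

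Gene counts per library ran from 16.3 to 29.9 M on ER ribosomes and from 15.2 to 22.8 M in whole-cell RNA. Values below are counts per M gene counts (CPM), and fold changes are log2 with their standard error (SE). The siRNA targets were lower in the libraries labelled for them: Nmd3 was at 120 to 154 CPM in scramble libraries and at 24.1 to 72.3 CPM after its siRNA, and Gnl3 at 170 to 272 CPM in scramble and at 26.9 to 88.2 CPM after its siRNA. Each of the 10 mESC markers looked at reached 1 CPM in at least 1 library of every group. Summed per library the 10 ran from 4416 to 10430 CPM, against 13.8 to 45.5 CPM for 10 fibroblast and feeder markers. The sum was 66.5 to 118 CPM for 6 trophoblast markers and 8.56 to 19.8 CPM for 7 primitive endoderm markers. Nmd3 whole-cell replicate 2 and Gnl3 whole-cell replicate 3 stood apart from the other whole-cell libraries. Their log2 CPM correlated with those of the other 7 at 0.914 to 0.945, against 0.993 to 0.997 among the 7, and mitochondrial RNA made up 0.769% and 6.14% of their counts, against 1.15% to 2.03%. Each was compared with the mean of the other whole-cell replicates of its own siRNA. In the former 23 of the 47 members differed from that mean by more than 1.5-fold (58.5% of genes did). Their log2 deviations ran from -2.16 for Mdn1 to 1.23 for Rpf2. In the latter 19 members differed by more than 1.5-fold (43.0% of genes), from -1.81 for Wdr18 to 1.08 for Npm1. Results that use whole-cell RNA are therefore given from all libraries, without these 2, or both, as said beside each. Of the members 14 overlap exons of a gene on the other strand, and the strand setting of the counting is not given in the sources used here, so reads of such pairs may not be told apart; the partners are named beside the results.

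The members differed widely in level. Per kb of coding length, scramble whole-cell RNA held 3126 ± 139 CPM per kb (SD, n = 3) of Npm1, the nucleolar chaperone nucleophosmin, and 1188 ± 39.9 of Ncl, nucleolin. Next were Pa2g4 (Ebp1), which sits at the exit tunnel of the forming subunit, at 641 ± 19.7, and Rsl24d1, the placeholder for ribosomal protein eL24, at 394 ± 3.25 CPM per kb. Each of these 4 differed from the next by more than their SDs. The median over the 47 was 105 CPM per kb. At the low end stood Mdn1 at 19.3 ± 2.24 and Urb1, a scaffold of the early particle, at 14.4 ± 1.08 CPM per kb. The order depends on the length used. Per kb of all exon bases, in scramble whole-cell replicates 1, 2 and 3, Npm1 stayed highest. Pa2g4 (266.1, 279.9 and 264.9) then lay above Ncl (239.4, 246.4 and 256), and Rsl1d1 (153.4, 159.5 and 148.1) above Rsl24d1 (112.5, 114 and 112.3). Tma16 (6.241, 6.208 and 5.899) lay below Mdn1 (15.63, 12.82 and 15.95) and Urb1 (12.79, 11.05 and 12.33). Together the 47 genes took 1.23% to 1.30% of counts on ER ribosomes and 1.31% to 1.42% in 7 whole-cell libraries, and 1.56% and 1.81% in the other two.

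**Figure D1:**
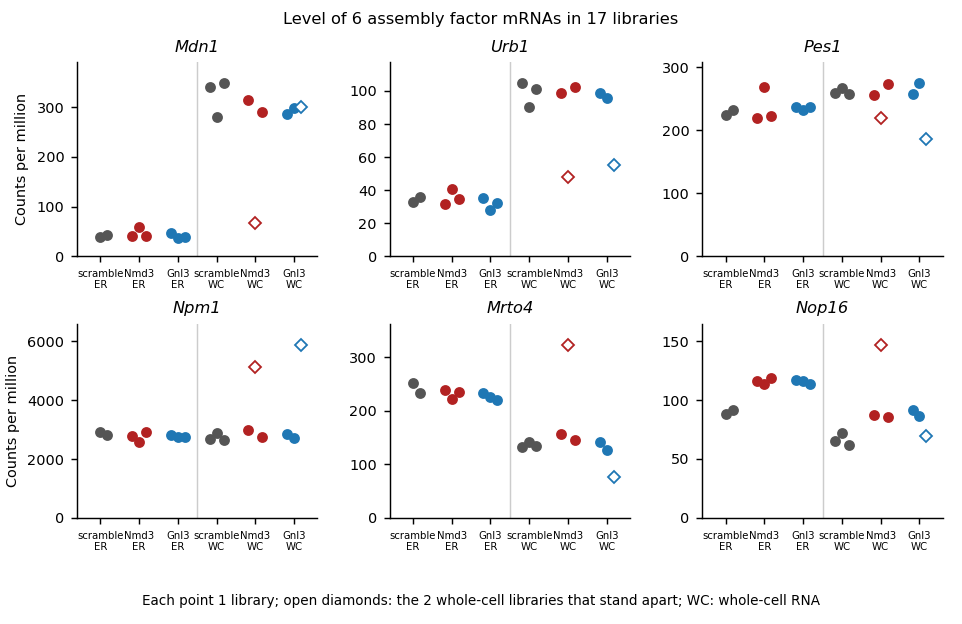
CPM (vertical axis, linear, from 0) of 6 members in each library, by siRNA and fraction; each point is 1 library and open diamonds mark the 2 whole-cell libraries that stand apart. Every ER point of Mdn1 and Urb1 lies below every whole-cell point, the filled points of Mrto4 lie higher on ER ribosomes, and among the filled points of each fraction Nop16 is lowest in scramble cells.

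The comparison of ER ribosomes with whole-cell RNA asks which of these mRNAs make up a larger or smaller share of ER-ribosome RNA than of whole-cell RNA. Whole-cell RNA also holds RNA that is on other ribosomes or on none. Place in the cell, binding to ribosomes and RNA integrity therefore cannot be told apart in this ratio. Most members that passed the test were lower on ER ribosomes. With all 17 libraries fitted by edgeR's quasi-likelihood test, 0 members were higher and 7 lower in scramble cells, where 5.14% of all genes tested were called higher and 7.56% lower. After Nmd3 siRNA 0 were higher and 9 lower (background 7.71% and 7.5%), and after Gnl3 siRNA 1 was higher and 11 lower (10.3% and 14.2%). Without the 2 libraries that stand apart the counts were 8 higher and 21 lower in scramble (25.1% and 25.3% of all genes), 5 and 25 after Nmd3 siRNA (24.5% and 25.6%) and 6 and 25 after Gnl3 siRNA (23.3% and 24.9%). The median log2 difference over the 47 was then -0.11, -0.15 and -0.16, against 0.02, 0.01 and 0.02 over all genes. The fractions of a culture come from 1 lysate. With each culture (siRNA and replicate) as a block, called the replicate block below, the 17-library counts were 2, 3 and 8 members, all lower. Without the libraries that stand apart they were 27, 32 and 30, both directions together. The share of all genes called with the block is not given here. These block counts therefore describe the fits and not the members. RNA in these bulk libraries is a share of the total, so fewer cells with an mRNA and less of it per cell cannot be told apart.

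Most of the rixosome and its remodelling ATPases were lower on ER ribosomes. In scramble cells 7 of 9 were called lower and 0 higher without the libraries that stand apart (25.3% and 25.1% of all genes). Their median was -0.50. With all libraries 4 of 9 were lower (7.56% of all genes), and 1 of 9 with the block as well. Without the libraries that stand apart 45.9% of all genes of 2000 to 2999 nt of coding length were lower in scramble. From 3000 to 5999 nt 64.6% were, and from 6000 nt 76.8%. Nol9, Las1l, Nvl and Tex10 (2142 to 2784 nt), Pelp1 (3369 nt) and Mdn1 (16767 nt) are in these classes. Nle1 (1455 nt), Wdr18 (1293 nt) and Senp3 (1704 nt) are in the class from 1000 to 1999 nt, where 20.8% were lower. Mdn1 (ENSMUSG00000058006.13), the dynein-related ATPase that strips factors from the particle, was at 39.6 and 43.7 CPM on scramble ER ribosomes, while scramble whole-cell RNA held 341, 279.9 and 348 CPM. In Nmd3 siRNA cells the values were 41.6, 59.1 and 41.1 CPM on ER ribosomes against 314, 67.6 and 290.2 CPM in whole-cell RNA, the 67.6 in the library that stands apart. In Gnl3 siRNA cells they were 45.9, 36.2 and 38.4 against 286, 299 and 300.4 CPM, the last in the library that stands apart. Every ER library was below every whole-cell library, including those that stand apart. The log2 difference was -2.98 (SE 0.39, adjusted p = 0.000381) in scramble, -2.29 (SE 0.33, adjusted p = 0.000307) after Nmd3 siRNA and -2.95 (SE 0.33, adjusted p = 3.73e-05) after Gnl3 siRNA with all libraries, and -2.98, -2.68 and -2.91 without the 2. It was the largest difference of any member in each, and stayed past the threshold with the block (adjusted p = 0.0319, 0.0179 and 0.00399).

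Nol9, the polynucleotide kinase of the rixosome, was lower at -0.73 (SE 0.16, edgeR adjusted p = 0.00625), -0.56 (adjusted p = 0.0125) and -0.62 (adjusted p = 0.00403) in scramble, Nmd3 and Gnl3 siRNA cells. Its partner Las1l, the endonuclease, was lower at -0.54 (SE 0.13, adjusted p = 0.0101), -0.40 and -0.52. Nvl, an AAA ATPase, was lower at -0.60 (SE 0.16, adjusted p = 0.0242), -0.45 and -0.66. With the replicate block and all libraries these 3 passed after Gnl3 siRNA only (adjusted p = 0.101, 0.12 and 0.155 in scramble). Without the libraries that stand apart they were called with each siRNA, from -0.73 to -0.46. Pelp1 and Tex10, scaffold subunits, and Nle1, the Mdn1 substrate, were called lower with each siRNA without those libraries (-0.50, -0.37 and -0.30 in scramble). With all libraries Pelp1 and Nle1 were called with no siRNA, Nle1 turning to 0.06 (SE 0.25) after Gnl3 siRNA, and Tex10 was called after Gnl3 siRNA only (-0.53, adjusted p = 0.0163, and 0.0698 with the block). Wdr18 (-0.04, SE 0.06) and Senp3 (-0.10, SE 0.05), a SUMO protease, did not pass in scramble without the libraries that stand apart, nor with all libraries (SE 0.33 and 0.22). After Gnl3 siRNA Senp3 passed in the former (-0.13) and was at 0.06 (SE 0.20) in the latter. Tex10, Nle1 and Nvl overlap exons of Invs, Fndc8 and Fgfr3-ps on the other strand.

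Of the Pes1-Bop1-Wdr12 complex 3 of 3 were lower in scramble without the libraries that stand apart (25.3% of all genes). With all libraries 0 of 3 were lower (7.56% of all genes). Bop1 was at 114 and 113 CPM on scramble ER ribosomes, while the whole-cell libraries held 164, 155 and 163 CPM, groups that do not overlap, a log2 difference of -0.53 (SE 0.06, edgeR adjusted p = 1.2e-08). Pes1 was at 224 and 232 CPM against 260, 268 and 258 CPM, with -0.23 (SE 0.07, adjusted p = 0.00648), and Wdr12 at 144 and 148 against 157, 176 and 163 CPM, with -0.21 (SE 0.06, adjusted p = 0.00533). With all libraries the same differences had SEs of 0.22, 0.15 and 0.23 and adjusted p = 0.138, 0.384 and 0.628. Exons of Mroh1, 4930556J24Rik and Carf on the other strand overlap Bop1, Pes1 and Wdr12. Of the 5S recruitment factors, Rpf2 was at 0.01 (SE 0.07) and Rrs1 at -0.07 (SE 0.06) in scramble, and Rrs1 passed after Nmd3 siRNA at -0.17 (SE 0.06, adjusted p = 0.0121), both without the libraries that stand apart. With all libraries neither was called with any siRNA, and Rpf2 was at 0.01 (SE 0.42), -0.81 (SE 0.38) and -0.58 (SE 0.37) in scramble, Nmd3 and Gnl3 siRNA cells.

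Among the 6 DEAD-box helicases, which unwind or clamp rRNA, Ddx24 was lower with all libraries in scramble (-0.68, SE 0.18, edgeR adjusted p = 0.0227), after Nmd3 siRNA (-0.53, adjusted p = 0.0356) and after Gnl3 siRNA (-0.65, adjusted p = 0.00741). With the block the adjusted p was 0.1, 0.0632 and 0.0228, so the call held after Gnl3 siRNA only, and without the libraries that stand apart Ddx24 was called with each siRNA (-0.67, -0.47 and -0.60). Its ER level was 95.6 and 103 CPM in scramble, 99.2, 152 and 96.9 CPM after Nmd3 siRNA and 103, 97.0 and 103 CPM after Gnl3 siRNA, so 1 library, Nmd3 ER replicate 2, lay above the other 7. That library was also the highest of the 8 for Mdn1. Its deviation from the mean of the other Nmd3 ER replicates rose with coding length (Spearman rho 0.68 over 47 members, 0.24 over all genes, a description). The other 5 helicases lay between -0.17 and -0.01 in scramble without the libraries that stand apart, with Ddx18 and Ddx27 called lower, and between -0.17 and -0.02 with all libraries, none called. Ddx54, one of the 5, overlaps Gm43579 and Cfap73 on the other strand. Of the rRNA methyltransferase group, Nop2, which methylates a cytosine of 28S rRNA, was without the libraries that stand apart at -0.13 (SE 0.06, adjusted p = 0.0586) in scramble and passed after Nmd3 (-0.16) and Gnl3 siRNA (-0.20), while its partner Nip7 was higher in scramble (0.20, SE 0.06, adjusted p = 0.0031). With all libraries neither was called with any siRNA, and Nip7 was at -0.38 (SE 0.24) after Nmd3 siRNA.

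The 18 early nucleolar factors went both ways. In scramble without the libraries that stand apart 7 were lower and 4 higher (25.3% and 25.1% of all genes), with a median of -0.09. With all libraries 2 were lower and 0 higher (7.56% and 5.14% of all genes). Urb1 (ENSMUSG00000039929.15) was at 32.8 and 36.1 CPM on scramble ER ribosomes against 105, 90.5 and 101 CPM in whole-cell RNA, and its difference was -1.55 (SE 0.24, edgeR adjusted p = 0.000834) in scramble, -1.32 after Nmd3 siRNA and -1.46 after Gnl3 siRNA with all libraries. It passed with the block too. Urb2, another early scaffold, was lower at -0.82 (SE 0.17, adjusted p = 0.00471), -0.59 and -0.76, with adjusted p = 0.077, 0.0901 and 0.019 with the block, and at -0.82, -0.78 and -0.76 without the libraries that stand apart. Noc3l was lower after Gnl3 siRNA (-0.71, adjusted p = 0.0206, and 0.0938 with the block), and without those libraries it was called with each siRNA (-0.60, -0.44 and -0.57). Tma16 was called after Gnl3 siRNA with all libraries at -0.53 (adjusted p = 0.0493, and 0.144 with the block) but lay at -0.19 (adjusted p = 0.0409) without them; the library that stands apart held 77.2 CPM of it and the other 2 whole-cell libraries 46.6 and 46.7 CPM. Pak1ip1 was called after Nmd3 siRNA at -0.59 (adjusted p = 0.0487, and 0.112 with the block) and lay at -0.22 (adjusted p = 0.00151) without them, with 219 CPM in the library that stands apart and 167 and 151 CPM in the others. On the other side Nop16, Nsa2 and Rrp1, which bind the early particle, were higher with each siRNA without the libraries that stand apart: Nop16 at 0.41 (SE 0.06), 0.42 and 0.33, Nsa2 at 0.30 (SE 0.06), 0.30 and 0.22, and Rrp1 at 0.27 (SE 0.05), 0.25 and 0.23. With all libraries none of the 3 passed, Nop16 and Nsa2 were at -0.11 (SE 0.24) and -0.28 (SE 0.28) after Nmd3 siRNA, and Nsa2 at -0.03 (SE 0.28) after Gnl3 siRNA. Ebna1bp2 was higher in scramble (0.21) and after Gnl3 siRNA (0.16) without those libraries; with all libraries it was not called and lay at -0.47 (SE 0.26) after Nmd3 siRNA. On the other strand Nsa2 overlaps exons of Fam169a and Gfm2, with 1590 of its 4275 exon bases in the larger overlap. On that strand Urb2 overlaps Gm45732, Pak1ip1 overlaps A730081D07Rik, Noc2l overlaps Samd11, Mak16 overlaps Tti2 and Rrp1b overlaps Hsf2bp.

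Mrto4 (ENSMUSG00000028741.14), the placeholder for the stalk protein P0, was the member with the largest excess on ER ribosomes once the libraries that stand apart were left out. It was at 253 and 233 CPM on scramble ER ribosomes against 132, 142 and 135 CPM in whole-cell RNA, at 239, 223 and 235 against 156, 323 and 145 CPM after Nmd3 siRNA, and at 234, 226 and 220.3 against 141, 127 and 75.6 CPM after Gnl3 siRNA. The 323 and 75.6 CPM are the libraries that stand apart, on opposite sides, and without them the fractions did not overlap. The difference was then 0.81 (SE 0.06), 0.62 (SE 0.06) and 0.71 (SE 0.06), with edgeR adjusted p of 1.38e-14, 2.59e-11 and 8.27e-13. With all libraries it was 0.80 (adjusted p = 0.158), -0.10 (adjusted p = 0.871) and 0.92 (adjusted p = 0.0476, and 0.0616 with the block). Rsl24d1 was higher in scramble (0.23) and after Nmd3 siRNA (0.17) without those libraries. With all libraries it was not called, and after Nmd3 siRNA its direction turned to -0.24 (SE 0.20). Gtpbp4, a nucleolar GTP-binding protein, was lower at -0.95 (SE 0.19, adjusted p = 0.00308) after Nmd3 siRNA and -0.85 (SE 0.19, adjusted p = 0.00355) after Gnl3 siRNA with all libraries, and at -0.62 (SE 0.21, adjusted p = 0.0659) in scramble. Without the libraries that stand apart it was called with each siRNA, at -0.69, -0.64 and -0.62 in the same order. It overlaps Gm48649 on the other strand. The abundant Npm1 was at 0.04 (SE 0.04) and Ncl at -0.09 (SE 0.04) in scramble without the libraries that stand apart, neither called. With all libraries neither was called with any siRNA, and Npm1 was at -0.63 (SE 0.33) after Nmd3 and -0.56 (SE 0.33) after Gnl3 siRNA.

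**Figure D2:**
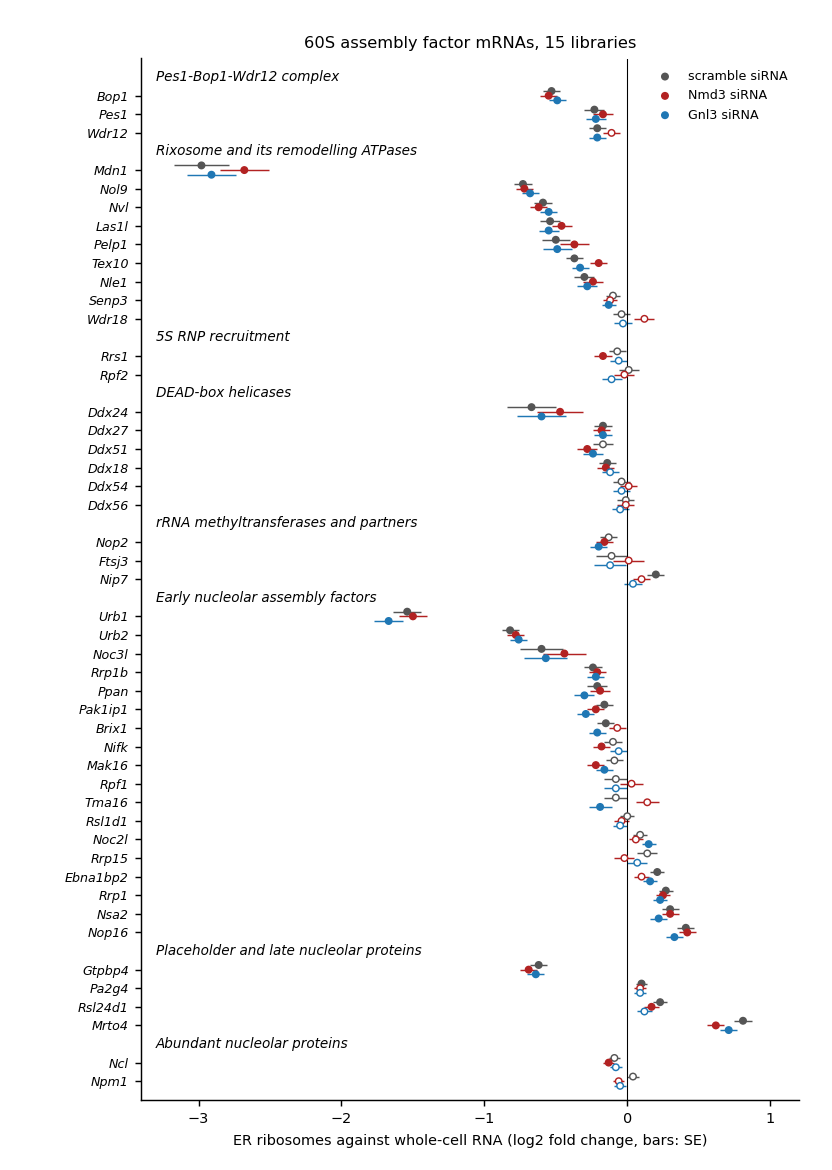
Log2 fold change of ER ribosomes against whole-cell RNA (horizontal axis) with SE for the 47 members, by role, in 15 libraries; colours are the siRNAs and filled points passed the test (adjusted p under 0.05). Mdn1 and Urb1 lie farthest to the left with each siRNA, at -2.98 and -1.54 in scramble, and Mrto4 farthest to the right, at 0.81.

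Culture by culture, over the 6 cultures with both fractions and no library that stands apart, the unscaled log2 ratio of Mdn1 ran from -3.05 to -2.64, that of Urb1 from -1.79 to -1.46 and that of Mrto4 from 0.61 to 0.83. Without the libraries that stand apart 19 members had every ER library below every whole-cell library with all 3 siRNAs, as did 22.8% of all genes, and 8 had every ER library above, as did 23.8%; 6 overlapped and 14 were mixed between siRNAs. With all libraries 4 members lay below (4.13% of genes) and 1 above (14.2%) with all 3 siRNAs, and after Nmd3 siRNA by itself 7 lay below (6.71%), 2 above (20.6%) and 38 overlapped. The test called 18 members lower (20.4% of genes) and 4 higher (18.1%) with all 3 siRNAs without the libraries that stand apart, and 7 lower (5.17%) and 0 higher (3.88%) with all libraries. With at least 1 siRNA 29 members were lower (30.7% of genes) and 9 higher (31.3%) without those libraries, and 12 lower (15.5%) and 1 higher (12.4%) with them. The other 9 (Ddx54, Ddx56, Ftsj3, Npm1, Rpf1, Rpf2, Rrp15, Rsl1d1 and Wdr18) were called with none in either set of libraries. With the replicate block and all libraries Mdn1 and Urb1 were the 2 called with all 3 siRNAs, Gtpbp4 was called after each knockdown, and Ddx24, Las1l, Nol9, Nvl and Urb2 after Gnl3 siRNA only; Mrto4, Noc3l, Pak1ip1, Tex10 and Tma16 lost their call.

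The difference between fractions went with coding length among the members. Spearman's rho between coding length and the log2 difference was -0.76 over the 47 members in scramble and -0.53 over 14272 genes, and -0.68 over members after each knockdown (-0.48 over genes), all without the libraries that stand apart and given as a description. The points share libraries. Of the 12 members with coding regions under 1000 nt, 6 were higher and 0 lower in scramble, with a median of 0.17 against 0.33 for all genes of that class, of which 51.8% were higher. Of the 14 members from 2000 to 2999 nt, 9 were lower and 0 higher, with a median of -0.30 against -0.24, and 45.9% of genes in that class were lower. With all libraries the medians were 0.17 and -0.31, but 0 members of the former class were called (10.8% of its genes were higher) and 4 of the latter were lower (13.4% of its genes); with the block as well 0 members were called in either class. Urb1 (6831 nt) and Mdn1 (16767 nt) are the 2 members of 6000 nt or more, where the median of 392 genes was -1.19. Against a smoothed trend of all genes on coding length, 38 of 47 members lay below it in scramble, where 52.0% of genes did, with a median distance of -0.16. The distance from the trend at its own length was -1.25 for Mdn1, -0.56 for Nol9, -0.50 for Urb1, -0.10 for Urb2 and 0.49 for Mrto4. In Nmd3 whole-cell replicate 2 the deviation from the mean of the other Nmd3 whole-cell replicates itself fell with length (rho -0.78 over members). With that library in the fit rho over members after Nmd3 siRNA was -0.06.

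**Figure D3:**
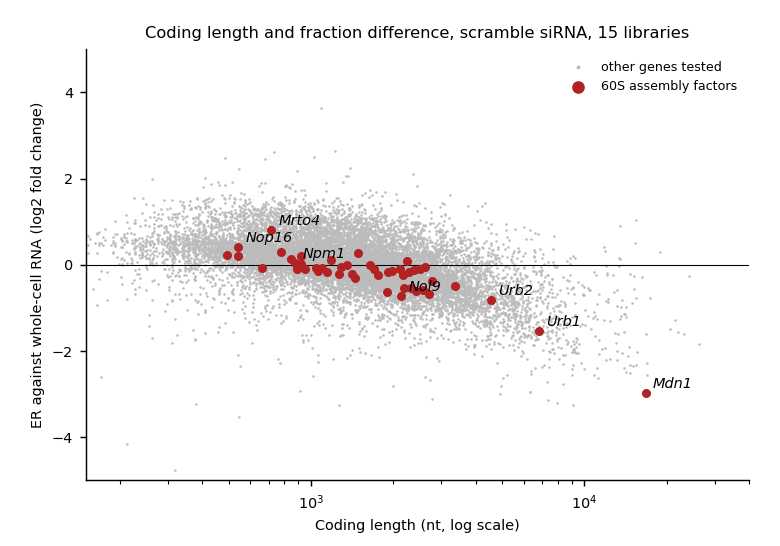
Coding length in nt (horizontal, log scale) against the log2 fold change of ER ribosomes over whole-cell RNA in scramble cells (vertical) for the members (red) and the other genes tested (grey), 15 libraries. Members with long coding regions lie low, Mdn1 (16767 nt) at -2.98 and Urb1 (6831 nt) at -1.54, and the grey cloud slopes the same way.

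Neighbouring steps of ribosome assembly were set beside these values from fixed lists. Over all genes in scramble 25.3% were lower and 25.1% higher without the libraries that stand apart, and 7.56% and 5.14% with all libraries. Of 34 genes of the small-subunit processome, which assembles the other subunit, 23 were lower and 4 higher in scramble without the libraries that stand apart (10 and 0 with all libraries), with a median of -0.43, and Utp20, a very long scaffold, was at -2.31 (SE 0.18, edgeR adjusted p = 1.74e-06). In the same 15 libraries, of 26 other 60S GTPases, export and assembly factors 11 were lower and 9 higher, with a median of -0.01. Of 11 RNA polymerase I genes 5 were lower and 2 higher, Polr1a, the largest subunit, at -1.49 (SE 0.16). Of 10 snoRNP proteins 3 were lower and 6 higher, Nhp2 at 0.54 (SE 0.05). With all libraries these 3 lists had 3, 3 and 0 genes lower and 0 higher, and with the block the 4 lists had 2 genes called, both of the processome.

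The knockdown comparisons ask whether loss of Nmd3 or Gnl3 changes these mRNAs, and both use the same scramble libraries. On ER ribosomes Nop16 was the 1 member of 47 called after Nmd3 siRNA, where 0.652% of all genes were called higher, and the 1 member called after Gnl3 siRNA, where 1.51% were. Nop16 (ENSMUSG00000025869.12), a small basic protein of the early particle, was at 88.3 and 92.0 CPM on scramble ER ribosomes, at 116, 114 and 119 CPM after Nmd3 siRNA and at 117, 116 and 114 CPM after Gnl3 siRNA. Each knockdown library was above each scramble library. The log2 change was 0.38 (SE 0.05, edgeR adjusted p = 0.000287) after Nmd3 siRNA and 0.35 (SE 0.05, adjusted p = 0.000249) after Gnl3 siRNA. The scramble group has 2 libraries: without scramble ER replicate 2 the change after Nmd3 siRNA was 0.35 with adjusted p = 0.0505, and after Gnl3 siRNA 0.33 with adjusted p = 0.0446.

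In whole-cell RNA Nop16 was at 65.1, 72.4 and 62.2 CPM in scramble, at 87.3, 147 and 85.7 CPM after Nmd3 siRNA and at 91.9, 86.7 and 69.5 CPM after Gnl3 siRNA, the 147 and 69.5 in the libraries that stand apart. Only the 69.5 lay within the scramble range. With all 9 libraries the changes of 0.91 (SE 0.32, edgeR adjusted p = 0.852) and 0.36 (SE 0.32, adjusted p = 0.999) did not pass, and no gene did in either comparison by edgeR (393 and 199 genes, and 1 and 0 members, at an unadjusted p under 0.05; DESeq2 called 0 and 1 genes, no member among them). The siRNA targets did not pass there either, each after its own siRNA. By edgeR Nmd3 was at -1.29 (SE 0.39, adjusted p = 0.852) and Gnl3 at -1.84 (SE 0.25, adjusted p = 0.462). A lack of a call in that fit therefore says little. Without the libraries that stand apart Nop16 changed by 0.37 (SE 0.07, edgeR adjusted p = 0.0117) after Nmd3 siRNA, where 0.0629% of all genes were called higher. After Gnl3 siRNA its change was 0.43 (SE 0.07, adjusted p = 0.000961), where 0.515% were. Nop16 was again the 1 member called in each. The first call was lost without scramble whole-cell replicate 1 (0.35, adjusted p = 0.139) or 3 (0.32, adjusted p = 0.196), and the second without Gnl3 whole-cell replicate 1 (0.39, adjusted p = 0.106). Without Nmd3 whole-cell replicate 3, which leaves 1 library whose spread is taken from the other groups, 5 members were called after Nmd3 siRNA; besides Nop16 these were Rrp15 (0.28), Mak16 (0.22), Rpf1 (-0.27) and Tex10 (-0.26), named after their values were seen.

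The other 46 members were not called on ER ribosomes. Their log2 changes ran from -0.08 to 0.24 after Nmd3 siRNA and from -0.14 to 0.14 after Gnl3 siRNA, with a median SE of 0.06. Npm1 was at -0.04 (SE 0.04) and -0.06 (SE 0.04), Ncl at 0.01 (SE 0.04) and -0.07 (SE 0.04), Pes1 at 0.07 (SE 0.09) and 0.04 (SE 0.09), and Bop1 at 0.04 (SE 0.07) and 0.01 (SE 0.07). Mdn1 was known less well, at 0.20 (SE 0.21) and -0.07 (SE 0.21). In whole-cell RNA without the libraries that stand apart the other 46 ran from -0.18 to 0.16 after Nmd3 siRNA and from -0.16 to 0.09 after Gnl3 siRNA. Of the genes on the 4 lists of neighbouring steps, the 1 called on ER ribosomes after Nmd3 siRNA was Nmd3 itself (-2.29, SE 0.06), and the 2 called after Gnl3 siRNA were Gnl3 itself (-2.58, SE 0.24) and Nhp2 (-0.16, SE 0.04), all lower.

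**Figure D4:**
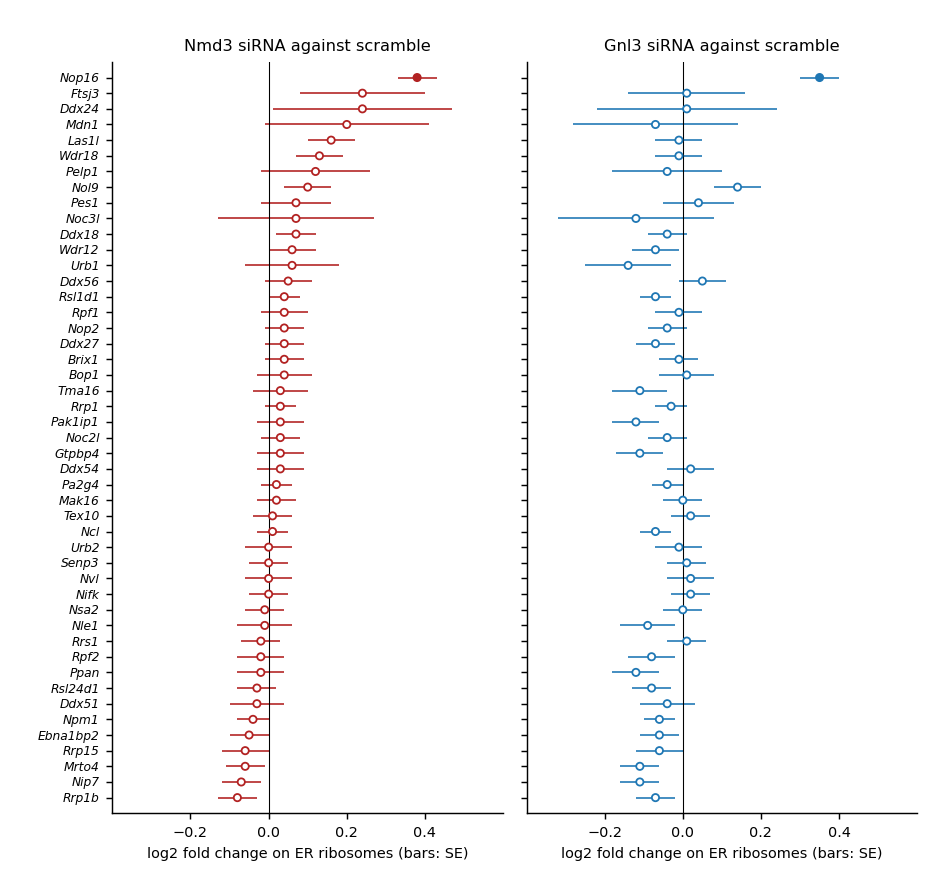
Log2 fold change on ER ribosomes (horizontal) with SE for each member after Nmd3 siRNA (left) and Gnl3 siRNA (right) against the same scramble libraries; filled points passed the test. Nop16 is the filled point in each panel, at 0.38 and 0.35, and the other 46 members lie between -0.14 and 0.24.

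Against each other the knockdowns differed in 0 of 47 members by edgeR on ER ribosomes, where 2.19% of all genes were called in either direction, and in 0 in whole-cell RNA without the libraries that stand apart (0.212%). At an unadjusted p under 0.05 there were 10 and 6 members, and DESeq2 called 0 in each. The share of all genes at that unadjusted threshold is not given here, so the 10 and 6 are not read as differences. The difference for Nop16 was 0.03 (SE 0.05) on ER ribosomes. Leaving out 1 library gave 1 call each on ER ribosomes, Ncl (0.11) without Nmd3 ER replicate 2 and Wdr18 (0.21) without Nmd3 ER replicate 3. The ratio of ER to whole-cell RNA itself was also compared between each knockdown and scramble. By edgeR 0 members, and 0 of all genes, were called for either siRNA with all libraries or without the 2 (1 member at an unadjusted p under 0.05 after Nmd3 siRNA without them, otherwise 0), and DESeq2 also called 0 members. With all libraries the members ran from -0.90 to 0.69 after Nmd3 and from -0.60 to 0.40 after Gnl3 siRNA (median SE 0.29 in each). Without the 2 they ran from -0.19 to 0.30 and from -0.16 to 0.08 (median SE 0.08 in each). An unchanged ratio cannot be read from the lack of calls. For Nop16 that change of the ratio was 0.01 (SE 0.09) after Nmd3 siRNA and -0.08 (SE 0.09) after Gnl3 siRNA without the libraries that stand apart.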

How the data were processed

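Counts per gene were deposited by the authors as raw counts, 1 library per file, without normalization. Per the submitters' processing notes they used STAR 2.7.9a, HTSeq 0.11.2, DESeq2 (no version) and build GRCm39 (mouse); the release of the annotation and the strand setting are not given in the sources used here. The 5 HTSeq lines that name no gene were left out (HTSeq's no-feature line held 46.6% to 48.3% of a library). Symbols and coding lengths came from GENCODE M21 (GRCm38), so no coordinates of gene models are given; the promoter stretches carry those of RefSeq's table (GRCm38.p6).

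Groups were compared in R 4.3.3 with edgeR 4.0.16 (filterByExpr, TMM, robust quasi-likelihood test). Calls are at a Benjamini-Hochberg adjusted p under 0.05, over every gene in the fit. Fractions, and changes of their ratio, were fitted over 17 libraries (18525 genes), knockdowns over 8 ER (17632 genes) or 9 whole-cell libraries (17310 genes). The same fits without the libraries that stand apart held 15 libraries (18271 genes) and 7 libraries (17490 genes). The SE is the absolute log2 change divided by the square root of F. The scripts were tested on simulated data. P-values measure the spread between the labelled biological replicates.

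The fractions of a culture come from the same lysate, per the series' design text, which pairs them. Their residuals correlated at -0.1 to 0.01 over 8 pairs. The fits use no block; where the block ends a member's call, this stands with that member or in the summary over siRNAs.

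The members and lists were chosen with earlier results of these data known. Named in each comparison are up to 10 called members a direction by size with all libraries, up to 5 without the libraries that stand apart, 10 members fixed by name, others under their complex, Nmd3, Gnl3 and up to 3 genes of each other list. Other scalings, DESeq2 1.42.0, no filter, the block, left-out libraries and a length trend (lowess, span 0.3) were tried.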

Additional observations from a re-analysis of the deposited data

How the results depend on the processing

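Counts of called members moved with the libraries used and with the libraries that share an estimate of the spread. The counts below take both directions together and come without the share of all genes. They describe the settings and not the members. Without the libraries that stand apart 25.1% of all genes were called higher and 25.3% lower in scramble. For scramble, where all libraries gave 7 members, no filter on low counts gave 4 and a fit of only the groups compared gave 35. Without those libraries edgeR called 29, DESeq2 28 and library totals alone 26, the last 2 settings chosen after seeing the data. After Nmd3 siRNA, from 9 members, library totals gave 3, no filter 3 and only the groups compared 1; without those libraries the counts were 30, 30 with DESeq2 and 30 with library totals. After Gnl3 siRNA, from 12, they were 31, 31 and 29. For Nmd3 and for Gnl3 against scramble in whole-cell RNA the count rose from 0 to 1 (Nop16) in each of these settings. The cause was not tested, apart from the libraries left out.

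The fit with the replicate block gave 2 members for scramble, 3 after Nmd3 siRNA and 8 after Gnl3 siRNA; without the libraries that stand apart the block gave 27, 32 and 30, and 1 for each knockdown against scramble in whole-cell RNA. It changed no call of Nop16. Within a fraction the block was the replicate number. Between siRNAs the replicates of a fraction share only that number (residual correlation -0.1 to 0.2 over 16 pairs).

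Leaving out 1 library at a time gave 2 to 6 members for scramble (2 without either scramble ER library), 4 to 14 after Nmd3 siRNA (4 without Nmd3 ER replicate 1 or 3, 5 without Nmd3 whole-cell replicate 1 and 14 without Nmd3 whole-cell replicate 2), 8 to 13 after Gnl3 siRNA, 0 to 1 for Nmd3 against scramble on ER ribosomes, and 0 to 1 for Nmd3 against Gnl3 siRNA there. With the libraries that stand apart also left out, an alternative chosen after seeing the data, the ranges were 20 to 29 in scramble (20 and 24 without ER replicates 2 and 3), 21 to 32 after Nmd3 siRNA (25 without ER replicate 1 or whole-cell replicate 3) and 21 to 30 after Gnl3 siRNA (21 and 23 without whole-cell replicates 2 and 1). In whole-cell RNA they were 0 to 5 for Nmd3 and 0 to 1 for Gnl3 against scramble, and 0 to 3 between knockdowns (Tex10 -0.23, Rrp15 0.26 and Gtpbp4 0.26, all without Nmd3 whole-cell replicate 3).

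Directions that turned did so with the libraries that stand apart. Given in the order both left out, block, DESeq2 and library totals, after Nmd3 siRNA Mrto4 went from -0.10 to 0.62, 0.64, 0.61 and 0.63, Nop16 from -0.11 to 0.42, 0.43, 0.41 and 0.43, Nsa2 from -0.28 to 0.30, 0.32, 0.29 and 0.31, and Rsl24d1 from -0.24 to 0.17, 0.21, 0.17 and 0.18. After Gnl3 siRNA Nle1 went from 0.06 to -0.28, -0.30, -0.29 and -0.24, Nsa2 from -0.03 to 0.22, 0.22, 0.22 and 0.26, and Senp3 from 0.06 to -0.13 and, with DESeq2, -0.14. Leaving out 1 more library gave 0.58 to 0.65 for Mrto4, 0.41 to 0.43 for Nop16, 0.23 to 0.36 (0.25 without Nmd3 ER replicate 3) and 0.21 to 0.23 for Nsa2, 0.15 to 0.21 for Rsl24d1, -0.35 to -0.27 for Nle1 (-0.31 without Gnl3 ER replicate 3) and -0.17 for Senp3. Over single left-out libraries with the rest kept, Mrto4 ran from -0.37 to 0.60 and Nop16 from -0.31 to 0.41 after Nmd3 siRNA, the upper ends without Nmd3 whole-cell replicate 2.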

Other observations

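Higd2a, a mitochondrial respiratory chain assembly gene whose start lies next to that of Nop16 on the other strand in the RefSeq gene order, was looked at after the values of Nop16 were seen. Its log2 change on ER ribosomes was 0.05 (SE 0.10, edgeR adjusted p = 0.893) after Nmd3 siRNA and 0.04 (SE 0.10, adjusted p = 0.902) after Gnl3 siRNA, where Nop16 was at 0.38 and 0.35. In whole-cell RNA without the libraries that stand apart Higd2a was at 0.00 (SE 0.10) and 0.11 (SE 0.10), and Nop16 at 0.37 and 0.43.

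By its p-value Nop16 ranked 2 among the 115 genes called higher on ER ribosomes after Nmd3 siRNA and 32 among the 266 called higher after Gnl3 siRNA.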
